A study of Mus musculus with 16 samples.

Results

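The mitochondrial ribosomal protein genes encode the protein part of the mitochondrial ribosome, and their messages were followed here in CD4+ T cells given 1 of 4 microRNA mimics. Members were taken by name: every symbol in the count files made of Mrpl or Mrps and a number, without pseudogene names ending in -ps, with at least 10 reads in at least 4 of the 16 libraries. The rule found 76 genes, 47 with an Mrpl symbol and 29 with an Mrps symbol, among 23337 gene symbols. All 76 also passed the filter on low counts of the statistical fit, which kept 12952 genes. The members were not chosen on their response to a mimic, except that Mrps33 was singled out with its lower level after miR-27a already known. For Mrps33, miR-27a against control is therefore a description. So is miR-27a against the other mimics, which uses the same miR-27a libraries.

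The mitochondrial ribosome translates the few messages that mitochondrial DNA encodes, all for subunits of the respiratory chain and ATP synthase. Its ribosomal RNAs come from mitochondrial DNA, while its proteins are made from nuclear genes, translated in the cytosol and imported. Some of these proteins have counterparts in the bacterial ribosome, and others are found only in mitochondria. Activated T cells expand their mitochondria, and mitochondrial translation is needed for T cell proliferation and effector function.

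The cells came from C57BL/6 mice of genotype Dgcr8f/f Tbet-/- CD4-cre, sorted as live RosaYFP+ CD4+ cells. Dgcr8, a partner of Drosha needed to make most microRNAs, is deleted by a Cre recombinase under the Cd4 promoter, and T-bet (Tbx21) is absent from all cells of the animal. The control group carries the same deletions, so every comparison is between microRNA-deficient, T-bet-deficient cells. CD4+ cells of spleen and lymph nodes were stimulated through CD3 and CD28 with IL-4 at 10 units/ml for 3 days and rested in IL-2 at 20 units/ml for 2 more days. They were electroporated on days 1 and 4 with 500 nM of a control mimic or of a mimic of miR-23a, miR-24 or miR-27a, with 4 libraries per group. The mice's age and the link from library to animal are not given in the labels, so p-values measure the spread between these libraries, part of which may be technical.

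The 3 microRNAs are encoded together in 1 cluster, and their mature sequences are shown because bases 2 to 8, the seed in capitals, set which messages they can pair with. The labels do not name the arm of the mimics, and the 3p arm, usually the abundant one, is shown here from RefSeq (GRCm38.p6).
miR-23a-3p: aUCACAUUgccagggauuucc
miR-27a-3p: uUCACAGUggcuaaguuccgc
miR-24-3p: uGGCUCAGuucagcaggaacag
They lie on the plus strand at chr8:84208563-84208583, chr8:84208727-84208747 and chr8:84208875-84208896, and miR-24-3p has a further identical copy at chr13:63301251-63301272. Each has a seed of its own. A full match to the seed followed by an A is AATGTGAA for miR-23a, ACTGTGAA for miR-27a and CTGAGCCA for miR-24.

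Total reads in genes ranged from 2120408 to 13714841 in 15 libraries, and control replicate 1 had 51474. In that library all members together had 68 reads, 37 of the 76 had none, and 1 read was worth 16.3 CPM (reads scaled to a common library total), so results against control are given with and without it where it matters. The Rn45s gene, the precursor of cytosolic ribosomal RNA, took 0.300% to 19.1% of gene reads. Of the 6 CD4 T cell markers, all had reads in every library (Cd3e 534 to 1083 CPM, Cd4 297 to 947 CPM). The NK marker Ncr1 and the globin genes Hba-a1 and Hbb-b1 were at 0 in all 16 libraries, and the CD8 T cell marker Cd8b1 reached 34.8 CPM.

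The summed level of the member messages did not separate the 4 groups. They made up 0.114% ± 0.0159 of gene reads in the control group, 0.116% ± 0.00787 for miR-23a, 0.110% ± 0.00621 for miR-24 and 0.112% ± 0.00557 for miR-27a (SD, n = 4 each). After scaling, the sum of all members was 987 to 1229 CPM in the controls, 1098 to 1174 CPM with miR-23a, 1058 to 1133 CPM with miR-24 and 1080 to 1232 CPM with miR-27a. The ranges of the 4 groups overlapped. Because these are bulk samples, fewer cells with a message and less message per cell cannot be told apart.

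Between members, levels spanned a wide range. Per kilobase of annotated exon, and as a mean of the 15 deeper libraries, the highest levels were those of Mrpl18 (28.8 CPM per kilobase), Mrpl39 (28.2) and Mrpl27 (23.7). Mrpl18 is the large-subunit protein that binds 5S ribosomal RNA in bacteria and Mrpl27 lies near the peptidyl transferase centre, while Mrpl39 is one of the proteins found only in mitochondria. The lowest were Mrps10 (0.717), Mrpl38 (0.808) and Mrpl48 (0.940). The median was 6.66 CPM per kilobase for Mrpl symbols and 3.52 for Mrps symbols. These values use the whole annotated exon length, so a gene with a long, little-used exon reads low.

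**Figure D1:**
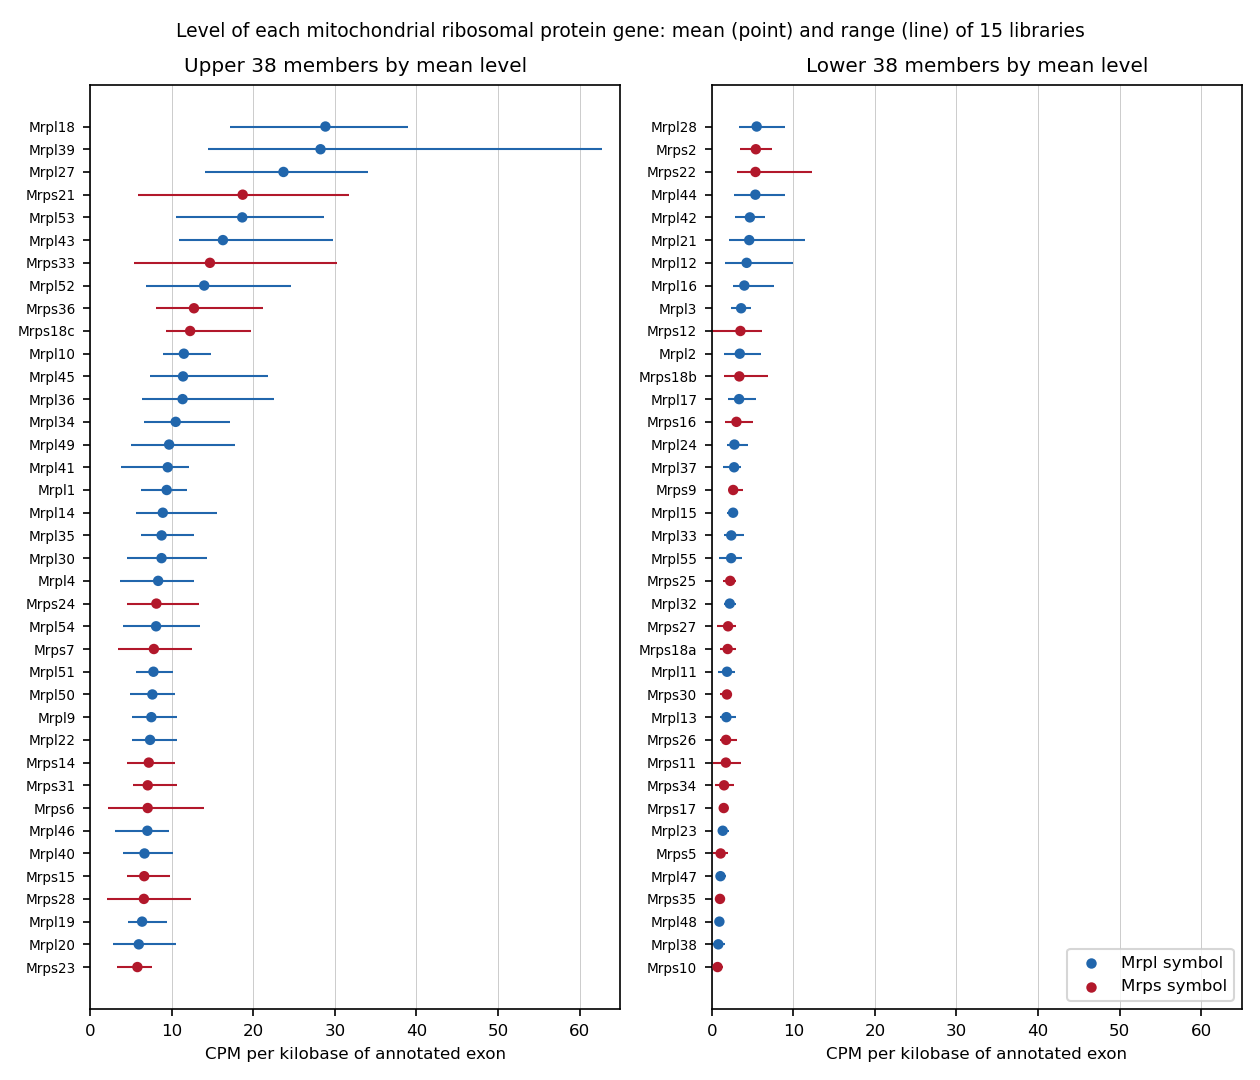
Level of each of the 76 members in CPM per kilobase of annotated exon: points are means and lines the lowest to highest of 15 libraries, without control replicate 1, blue for Mrpl and red for Mrps symbols. Mrpl18, Mrpl39 and Mrpl27 stand at the top of the left panel, and the line of Mrpl39 reaches furthest to the right.

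The spread over libraries differed between members. The tightest over the 15 libraries was Mrpl10, a protein at the base of the ribosomal stalk, which stayed between 15.2 and 25.2 CPM, with an SD of 0.21 in log2-CPM. Mrpl15 (15.8 to 27.2 CPM; SD 0.24) and Mrps9 (12.3 to 22.1 CPM; SD 0.26) followed. The widest were low in level: Mrps12 (0 to 6.42 CPM; SD 1.30), Mrpl38 (0 to 4.11 CPM; SD 1.15) and Mrps11 (0.305 to 7.68 CPM; SD 1.05). Among members with a mean log2-CPM of at least 3, the SD of Mrps33, at 0.76, was the widest. Within groups, the median biological coefficient of variation estimated by edgeR was 0.286 for the 46 members at or above that level and 0.288 for all 8070 genes at or above it.

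**Figure D2:**
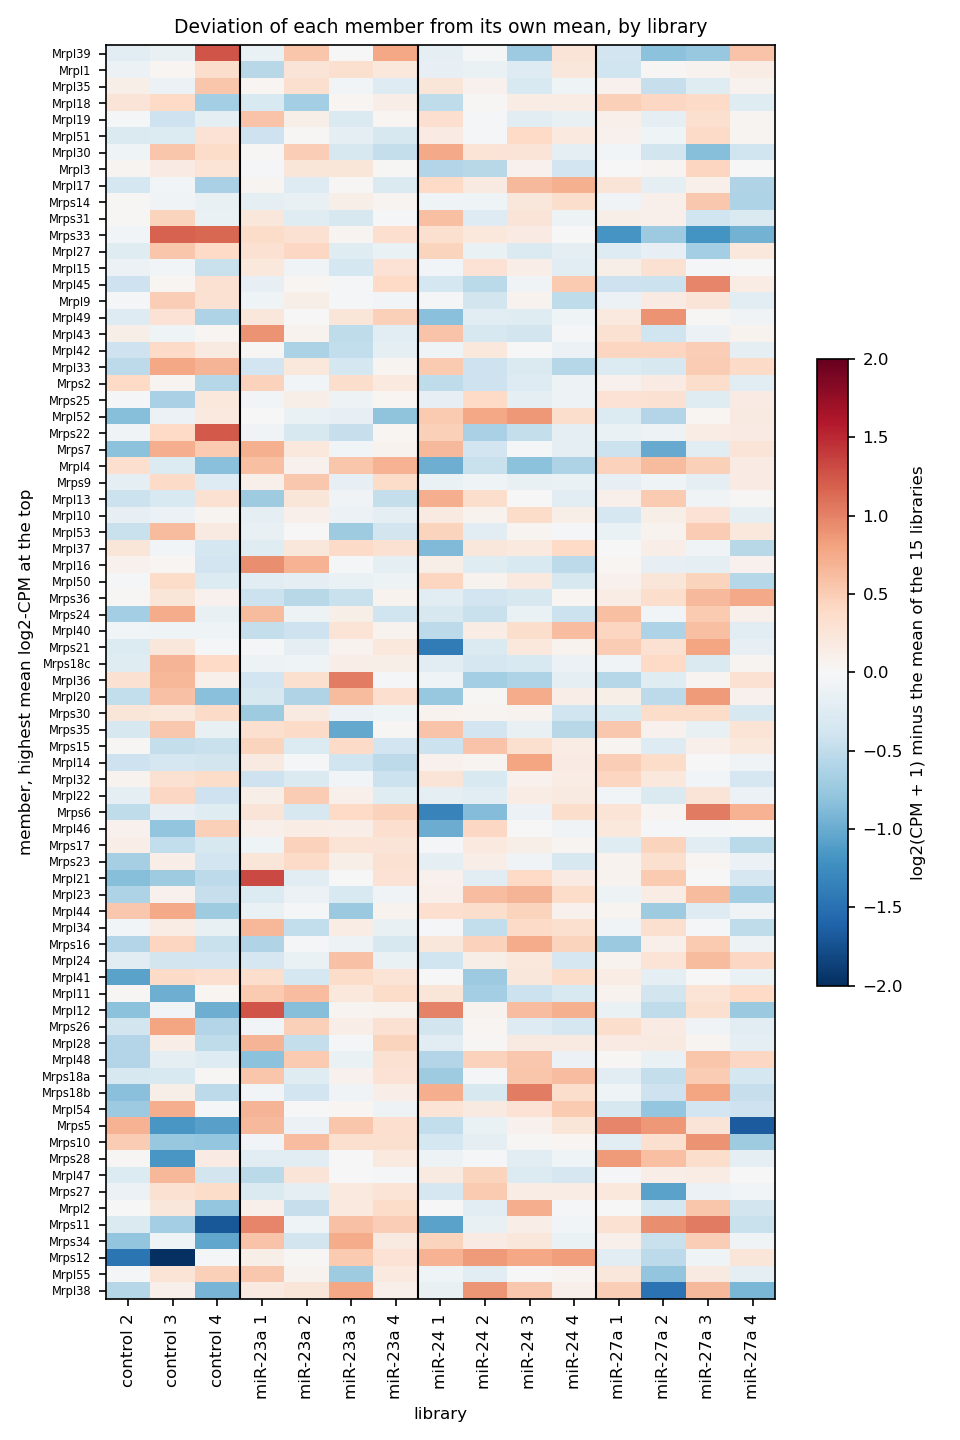
Each row is a member and each column a library (control replicate 1 left out); colour is log2(CPM + 1) minus the member's mean over the 15 libraries, from -2 in dark blue to 2 in dark red, with black lines between groups. Rows near the bottom, with low levels, vary most, and the Mrps33 row is blue in all 4 miR-27a libraries.

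Against the control mimic, 1 member changed in the edgeR fit. With miR-23a, edgeR's quasi-likelihood test called 0 of 76 members at a Benjamini-Hochberg adjusted p under 0.05, against 0.131% of all genes tested, and DESeq2 and limma called 0 as well. At an unadjusted p under 0.05 there were 7 members, or 9.21%, beside 11.2% of all genes, and in 3 members (3.95%, beside 5.20%) the 2 groups did not overlap. Overlap against control was counted with control replicate 1, where the 37 members without a read could not count as lower. Among the named members, leaving it out separated the groups for Mrpl32 (lower, miR-23a), Mrpl36 (lower, miR-24), Mrpl52 (higher, miR-24) and Mrpl14 (higher, miR-24 and miR-27a). These members were named for their extreme values, and the share of all genes separated without it is not given here. Their separation is therefore a description only. The median log2 fold change of the members was 0.09, and that of all genes 0.05. With miR-24, edgeR called 0 members (0.849% of all genes), DESeq2 0 and limma with library weights 1 (Mrps12), with 11 members at an unadjusted p under 0.05 (14.5%, beside 14.2%). The groups did not overlap for 4 members (5.26%, beside 6.78%), and the members' median was 0.02, beside 0.05 for all genes. With miR-27a, edgeR called 1 member, Mrps33, which was lower, and DESeq2 and limma with library weights called the same 1. edgeR called 0.170% of all genes in either direction (22 genes, or 398 with the replicate number as a block), and 0.0849% as lower (11 genes without the block). There, 6 members had an unadjusted p under 0.05 (7.89%, beside 14.3%), 5 did not overlap between groups (6.58%, beside 6.47%), and the median was 0.13, beside 0.02 for all genes.

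Each mimic was then set against the mean of the other mimics, a comparison that uses no control library. For miR-23a, edgeR, DESeq2 and limma each called 0 members (0.695% of all genes in edgeR), with 4 members at an unadjusted p under 0.05 (5.26%, beside 10.7%) and 0 without overlap (beside 1.67%). For miR-24, edgeR called 1 member, Mrpl4, which was lower (1.35% of all genes, 0.795% lower). DESeq2 called Mrpl4 alone (338 genes in all), and limma with library weights called Mrpl17, Mrpl4, Mrpl52 and Mrps16 (990 in all). In edgeR, 10 members had an unadjusted p under 0.05 (13.2%, beside 13.5%) and 5 did not overlap (6.58%, beside 2.96%). For miR-27a edgeR called 1 member, Mrps33, which was lower (0.479% of all genes, 0.162% lower). DESeq2 called Mrps33 alone (153 genes in all), and limma called Mrpl4, Mrps33 and Mrps36 (796 in all). In edgeR, 7 members had an unadjusted p under 0.05 (9.21%, beside 12.1%) and 3 did not overlap (3.95%, beside 1.98%). The median log2 fold changes of the members were 0.07, -0.05 and 0.00 in these 3 comparisons. Since the mimic groups are shared between them, the 3 are not independent.

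**Figure D3:**
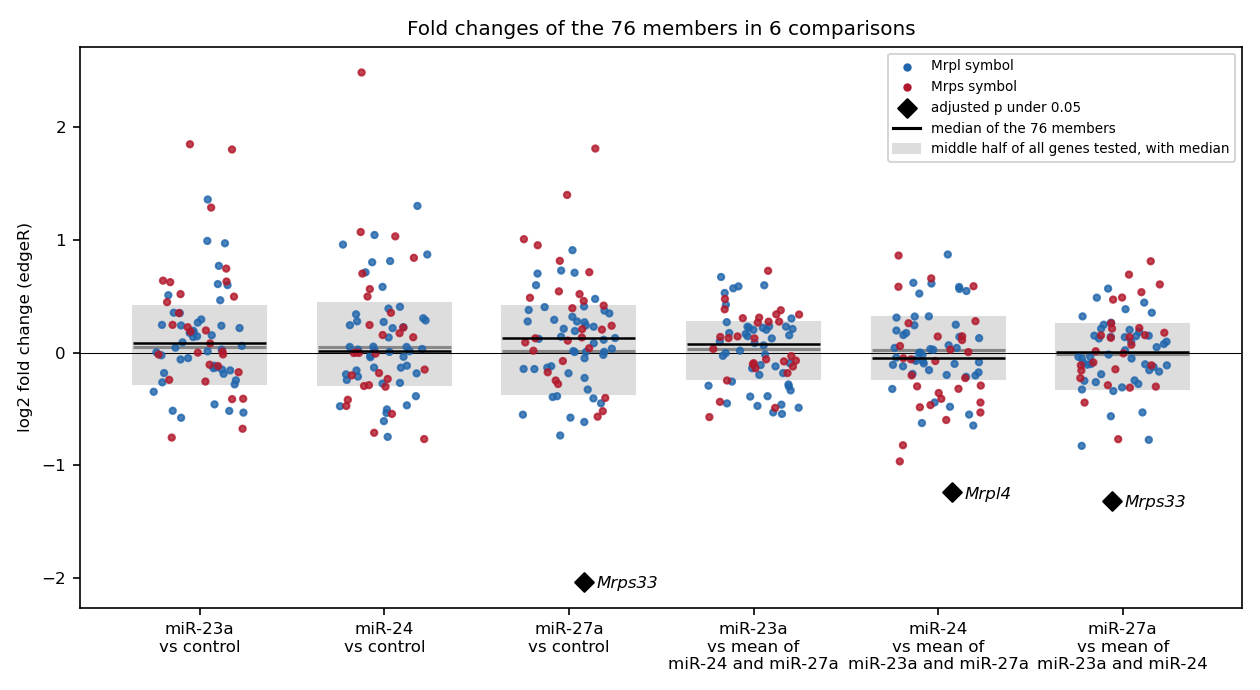
Log2 fold changes (edgeR) of the 76 members in the 6 comparisons, 1 point per member; black lines are member medians, grey boxes run from the lower to the upper quartile of all 12952 genes with their median, and diamonds mark adjusted p under 0.05. The member medians lie between -0.05 and 0.13, and 3 diamonds stand apart: Mrps33 at -2.03 and -1.31 and Mrpl4 at -1.24.

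Mrps33 had its lowest level after miR-27a. It encodes a small-subunit protein with no bacterial counterpart. Its level was 65.1, 20.9, 50.5 and 49.5 CPM in control replicates 1 to 4, where the first value rests on 4 reads. It was 28.3, 27.1, 22.5 and 27.7 CPM with miR-23a and 27.4, 25.3, 24.5 and 21.9 CPM with miR-24. With miR-27a it was 9.03, 12.7, 8.97 and 10.8 CPM. All 4 miR-27a libraries lie below all 12 others, the miR-23a and miR-24 libraries overlap, and control replicate 2 lies below every miR-23a and miR-24 library.

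Mean Mrps33 levels were 46.5 ± 18.5 CPM in the control group, 26.4 ± 2.63 CPM in the miR-23a group, 24.8 ± 2.25 CPM in the miR-24 group and 10.4 ± 1.76 CPM in the miR-27a group (SD, n = 4 each). The log2 fold change of miR-27a against control was -2.03 ± 0.29 (SE; edgeR adjusted p = 0.00836), and -1.97 without control replicate 1 (adjusted p = 0.0151). It kept an adjusted p under 0.05 in all 8 fits that left out 1 library of those groups. With the replicate number as a block it was -2.02 (adjusted p = 0.00151). Against the mean of the other mimics the log2 fold change was -1.31 ± 0.25 (SE; edgeR adjusted p = 0.0292). This second call was lost in 9 of the 12 fits that left out 1 library, where the value stayed between -1.41 and -1.24 and the adjusted p ranged from 0.0270 to 0.128. It was lost without any 1 of miR-23a replicates 2, 3 and 4, miR-24 replicates 2 and 3 and the 4 miR-27a replicates. Since Mrps33 was singled out for its level after miR-27a, the p-values and fits of both contrasts describe it and are not tests.

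The other mimics gave smaller differences for Mrps33 from control that did not pass the test. The log2 fold change was -0.67 ± 0.27 with miR-23a (SE; edgeR adjusted p = 0.384) and -0.77 ± 0.27 with miR-24 (adjusted p = 0.212). Without control replicate 2, the lowest control, the miR-24 value was -1.06 and its adjusted p 0.0357.

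Mrps33 lies on the minus strand at chr6:39801804-39810988 (mm10, GENCODE M21), with 3 exon blocks and 1667 bases of exon. Its longest annotated 3′ untranslated region has 635 bases and holds no 7-base or 8-base seed match of any of the 3 mimics, searched on the transcript strand. It holds 1 match to the 6 bases CTGTGA of miR-27a at chr6:39802299-39802304 and 1 to the 6 bases TGAGCC of miR-24 at chr6:39802058-39802063. They are shown, capitals marking the match, because Mrps33 is the member that departs most from the rest.
miR-27a match: cttcagttaagCTGTGActggtttcttg
miR-24 match: tctctgaccagTGAGCCtttgtattcac
Such 6-base or longer matches are common: 49.8% of the 11037 untranslated regions searched hold one for miR-27a, and 34.2% of those of the 76 members. Of the 50-base stretches of Mrps33 exons, 13.3% also occur in the gene Gm5776, so reads from that copy cannot be fully told apart.

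Mrpl4 was lower with miR-24 than with the other mimics. It is the counterpart of a bacterial large-subunit protein that lines the exit tunnel for the growing chain. Its level was 9.69, 14.5, 10.95 and 12.7 CPM with miR-24, 30.9, 21.4, 29.99 and 33.3 CPM with miR-23a and 28.1, 31.9, 28.3 and 22.6 CPM with miR-27a. The miR-24 libraries all lie below the other 8 mimic libraries. The log2 fold change was -1.24 ± 0.26 (SE; edgeR adjusted p = 0.0228). It lost the call without any 1 of the 4 miR-24 libraries (adjusted p of 0.0652, 0.0629, 0.0943 and 0.0556 without replicates 1 to 4) and kept it without each of the 8 others. limma with library weights also called Mrpl4 higher with miR-27a than with the other mimics (0.61, limma adjusted p = 0.0413).

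The control libraries of Mrpl4 spread across both sides, at 0, 25.6, 16.5 and 10.8 CPM, and overlapped the miR-24 range. Against control the log2 fold changes were -0.50 with miR-24 (edgeR adjusted p = 0.485), 0.77 with miR-23a (0.376) and 0.70 with miR-27a (0.309), none past the test. Mrpl4 lies at chr9:21002738-21008839 on the plus strand. Its longest 3′ untranslated region has 200 bases, and none of the 3 seeds has a 7-base or 8-base match in it.

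**Figure D4:**
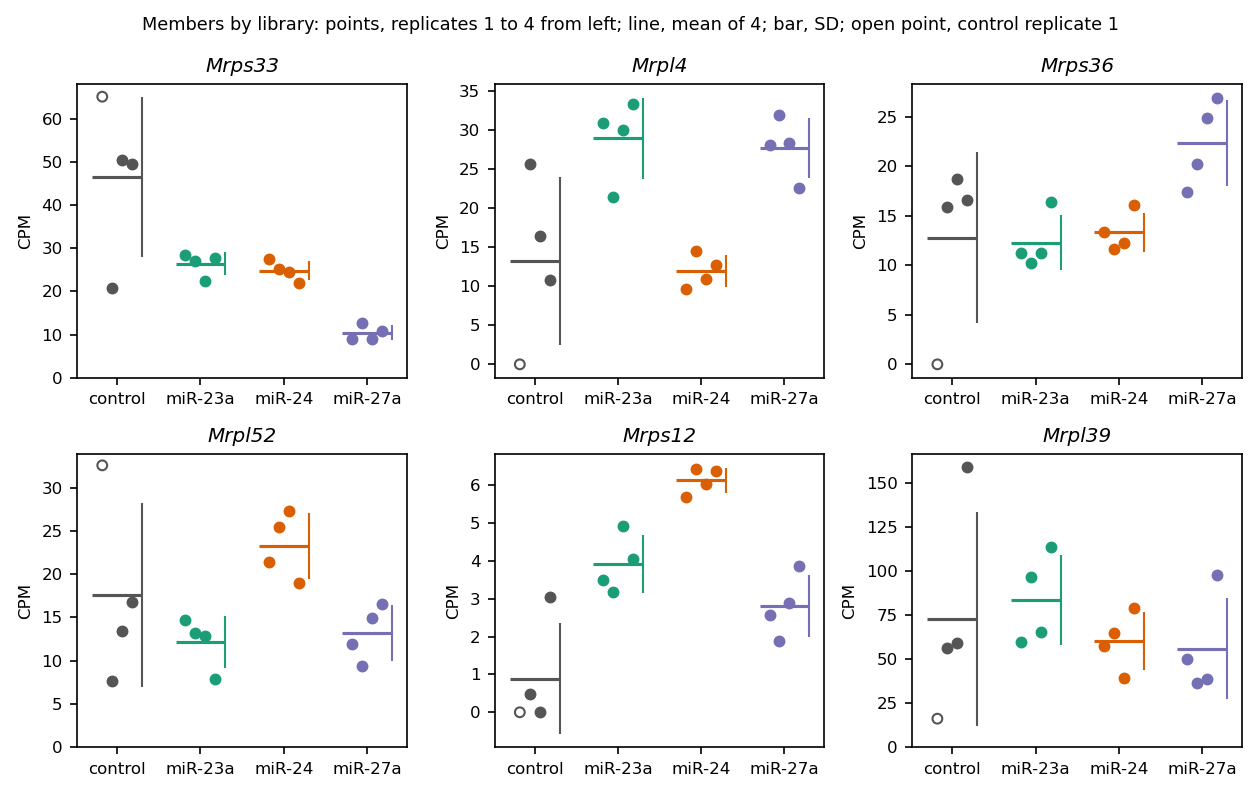
CPM of 6 members in each library, replicates 1 to 4 from left to right in each group; lines are means of 4, vertical bars SD, and the open point is control replicate 1. The miR-27a libraries of Mrps33 and the miR-24 libraries of Mrpl4 lie below those of the other mimics, and the highest library of Mrpl39 is replicate 4 in all 4 groups.

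Other large-subunit members had differences that did not pass the edgeR test, though 2 of them, Mrpl52 and Mrpl17, passed it with the replicate number as a block. limma with library weights also called both for miR-24 against the other mimics (limma adjusted p of 0.00838 and 0.0163). Mrpl52, found only in mitochondria, was at 21.4, 25.5, 27.3 and 19.0 CPM with miR-24, 14.7, 13.2, 12.8 and 7.87 CPM with miR-23a and 11.9, 9.39, 14.98 and 16.6 CPM with miR-27a. These miR-24 libraries lie above the others, with a log2 fold change of 0.87 ± 0.25 (SE; edgeR adjusted p = 0.0997, or 0.0397 with the block). Mrpl17, which has a bacterial counterpart, was at 35.2 ± 6.03 CPM with miR-24 and 18.6 ± 3.78 CPM with control (SD, n = 4 each). Its log2 fold change of 0.87 ± 0.25 had an edgeR adjusted p of 0.126, or 0.0491 with the block. Against the other mimics it was 0.61 ± 0.20 (SE; edgeR adjusted p = 0.144, or 0.0497 with the block). Mrpl30, which also has a bacterial counterpart, had a log2 fold change of -0.73 ± 0.29 for miR-27a against control (edgeR adjusted p = 0.267), and the groups overlapped.

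Mrpl39 was the member with the highest mean log2-CPM (5.92) and had a different pattern. Its level was 16.3, 56.4, 59.0 and 159 CPM in control replicates 1 to 4, where the first value rests on 1 read, 59.9, 96.6, 65.3 and 113 CPM with miR-23a, 57.5, 64.7, 39.3 and 79.0 CPM with miR-24 and 50.3, 36.6, 38.5 and 97.7 CPM with miR-27a. Replicate 4 was highest in every group. Against control its log2 fold change with miR-27a was -0.58 ± 0.41 (edgeR adjusted p = 0.531), and 0.081 without control replicate 4.

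Among small-subunit members other than Mrps33, Mrps36 and Mrps12 came nearest in edgeR. limma with library weights also called Mrps16 higher with miR-24 than with the other mimics (0.81, limma adjusted p = 0.0333). Mrps36, now known as a subunit of the 2-oxoglutarate dehydrogenase complex, was at 17.4, 20.2, 24.9 and 26.9 CPM with miR-27a, 11.3, 10.2, 11.3 and 16.4 CPM with miR-23a and 13.4, 11.7, 12.2 and 16.1 CPM with miR-24. The miR-27a libraries lie above the others, with a log2 fold change of 0.81 ± 0.23 (SE; edgeR adjusted p = 0.132, or 0.0379 with the block). limma with library weights called Mrps36 too (0.65, limma adjusted p = 0.0371). Of its 50-base stretches, 17.3% occur in other annotated genes, among them 2 pseudogenes. Mrps12, the counterpart of a bacterial decoding-centre protein, was at 0, 0.490, 0 and 3.05 CPM in the controls and 5.68 to 6.42 CPM with miR-24. Its groups did not overlap, and the log2 fold change of 2.48 ± 0.73 had an edgeR adjusted p of 0.130. With the block it was 2.84 ± 0.68 (adjusted p = 0.0255). It rests on 0 to 20 reads in a control library, and the count of 0 in control replicate 1 allows up to 48.8 CPM (3 reads, counting error only). Mrps22, found only in mitochondria, had log2 fold changes of -0.75, -0.71 and -0.52 against control for the miR-23a, miR-24 and miR-27a groups (adjusted p of 0.440, 0.376 and 0.510), with control replicate 4 at 48.9 CPM above every other library.

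Matches to bases 2 to 8 of the mimics were less frequent in the members than over all genes searched. The members' 3′ untranslated regions were short: a median of 358 bases, beside 1239 bases for all 11037 searched. An 8-base match or a match to bases 2 to 8 was held by 4 members for miR-23a (5.26%, beside 17.2% of all searched), 11 for miR-27a (14.5%, beside 17.9%) and 12 for miR-24 (15.8%, beside 19.6%). The 4 members with such a miR-23a match had a median log2 fold change of -0.30 after miR-23a, and the members without one 0.11. Over all genes searched the medians were -0.17 and 0.11. The 11 members with a miR-27a match had a median of 0.13 after miR-27a and those without 0.14, while all genes gave -0.14 and 0.08. For miR-24 the medians were 0.01 and 0.02, and -0.01 and 0.07 over all genes.

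No member with an 8-base match passed the test with that mimic. Such matches were held by 1 member for miR-23a (1.32%, beside 7.36% of all searched). For miR-27a they were held by 2 (2.63%, beside 6.63%) and for miR-24 by 7 (9.21%, beside 8.95%). The member with one for miR-23a, Mrpl32, at chr13:14608884-14608891 on the minus strand, had a log2 fold change of -0.53 ± 0.30 (SE; edgeR adjusted p = 0.510). Both members with one for miR-27a, Mrpl13 and Mrps31, had values of 0.13 ± 0.37 and -0.28 ± 0.27. Mrpl36, 1 of 7 members with one for miR-24, at chr13:73332018-73332025 on the plus strand, had -0.75 ± 0.36 (adjusted p = 0.363). The matches of Mrpl32 and Mrpl36 are shown, with capitals for the 8 bases, since these members had the lowest values among those with an 8-base match.
Mrpl32, miR-23a match: gtttagaagagAATGTGAAgaaaactagag
Mrpl36, miR-24 match: taagaggctgcCTGAGCCAaaaagctcttg

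The calls were also counted by kind of member. Of the 44 members with a bacterial counterpart, 0 passed the test in any comparison against control and 1, Mrpl4, was lower with miR-24 than with the other mimics. Of the 32 others, Mrps33 passed, with miR-27a against control and against the other mimics. The split follows the list used here, which counts Mrps18c with a counterpart but Mrps18a, Mrps18b, Mrpl47 and Mrps36 among the others. It is therefore approximate, and the kinds were not tested against each other. The median log2 fold changes against control were 0.13, 0.02 and 0.17 for members with a counterpart (miR-23a, miR-24, miR-27a) and -0.01, 0.02 and 0.09 for the others.

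The other genes of mitochondrial translation passed the test in some fits and not in others. The 4 lists held 62 tested genes: 7 ribosomal proteins under other names, 13 translation factors, 21 assembly factors and 21 aminoacyl-tRNA synthetases and related enzymes. In edgeR without the block, 0 of the 62 passed in each of the 6 comparisons, with 2 to 9 at an unadjusted p under 0.05. Among all genes, 0.131% to 1.35% passed and 10.7% to 14.3% had an unadjusted p under 0.05. DESeq2 called Gatc, part of the mitochondrial glutamyl-tRNA amidotransferase, lower with miR-27a than with control, and Mrrf, the ribosome recycling factor, lower with miR-27a than with the other mimics. The edgeR value of Mrrf in the latter was -1.49 ± 0.36 (SE; adjusted p = 0.0702), and -1.52 with the block (adjusted p = 0.0202). The block also called Gatc (-1.76; edgeR adjusted p = 0.0291) and Nars2, the mitochondrial asparaginyl-tRNA synthetase (-1.47; 0.0434), for miR-27a against control. For miR-24 against the other mimics it called Ict1, a peptidyl-tRNA hydrolase built into the large subunit (-1.04; 0.0305), and Mrrf (1.15; 0.0267). limma with library weights called Ict1 and Mrrf in both of these comparisons between mimics, and Gatc for miR-24 against control. Without miR-24 replicate 1, edgeR called Gatc for miR-24 against control (-1.91, adjusted p = 0.0260), among 158 genes called. Over all genes tested, the block called 398 for miR-27a against control, and 760 and 420 for miR-24 and miR-27a against the other mimics. DESeq2 called 154 and 153 genes for miR-27a against control and against the other mimics. In limma 990 and 796 genes were called for miR-24 and miR-27a against the other mimics.

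The 73 cytosolic ribosomal protein genes are given beside the members. With miR-24 against control, 64 of 73 had a positive log2 fold change and their median was 0.44, with 0 called, while 41 of 76 members and 6941 of all 12952 genes were positive. With miR-23a and miR-27a the cytosolic medians were 0.05 and 0.21, beside 0.09 and 0.13 for the members. Against control, 1 cytosolic gene was called lower with miR-23a (0.131% of all genes called) and 0 were called with miR-27a (0.170%). For miR-24 against the other mimics, 63 of 73 were positive with a median of 0.37, beside 35 of 76 members and a median of -0.05. Of these 73, 2 were called higher and 0 lower, with 1.35% of all genes called. For miR-23a against the other mimics, 64 of 73 were negative with a median of -0.26, beside 35 of 76 members and a median of 0.07. There, 3 cytosolic genes were called lower and 0 higher, with 0.695% of all genes called. The lists were not tested against each other.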

How the data were processed

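The deposited files hold whole-number read counts per gene symbol for 16 libraries (4 per group, single 50-nt reads from 1 ng RNA). Per the submitters' processing notes, Bowtie2, TopHat, DESeq and mm10 were used; the counter, annotation and strand setting are not given in the sources used here. Without strand, 27 members with opposite-strand exon overlaps cannot be separated from their partners. Lines naming no gene (unaligned, ambiguous and the like) held 64.6% to 77.6% of each file's total and were left out.

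Counts were fitted with edgeR 4.0.16 in R 4.3.3 (TMM scaling, filterByExpr, robust quasi-likelihood test, two-sided, group only, all 16 libraries, Benjamini-Hochberg over 12952 genes, threshold 0.05). Alternatives were DESeq2 1.42.0, limma 3.58.1 with library weights, other scalings and filters, a replicate block and leaving out each library. Members, Mrps33 and all lists were chosen with earlier results of these data known. Named genes were those passing the test, the 5 highest and 5 lowest per comparison with a mean log2-CPM of at least 3, the extremes in level and those with seed matches. Mrps9, Mrps11, Mrps16, Gatc, Nars2, Ict1 and Mrrf are outside this rule and were chosen after their values were seen. On simulated counts (12670 genes), the miR-27a against control test recovered 8% of genes changed 2-fold and 80% of those changed 4-fold, with 3 false calls of 91.

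Control and miR-27a libraries that share a replicate number deviated together (correlations of 0.198 to 0.611, 4746 genes above a mean log2-CPM of 5), as did miR-23a with miR-24 (0.350 to 0.671) and miR-23a with miR-27a (0.257 to 0.655). miR-24 with miR-27a (-0.00720 to 0.727) and control with miR-23a or miR-24 each had 1 of 4 pairs under 0.1. Blocked values are printed where they change a call. The pairing comes from the data, not the labels.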

Additional observations from a re-analysis of the deposited data

Results flagged for a closer look

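The flag for a difference between groups repeats the calls between mimics given above and adds no test. It holds Mrps33 with miR-27a (log2 fold change -1.31) and Mrpl4 with miR-24 (-1.24), each against the mean of the other mimics. In 4 groups of 4 libraries, 1 library stood apart by Dixon's gap ratio. Mrpl14 in miR-24 replicate 3 was 14.8 CPM, beside 8.55 to 9.24 CPM in the other miR-24 libraries. Mrpl42 in miR-27a replicate 4 was 14.5 CPM, beside 22.9 to 24.0 CPM. Mrps36 in miR-23a replicate 4 was 16.4 CPM, beside 10.2 to 11.3 CPM. The summed level of all members in miR-24 replicate 2 was 1058 CPM, beside 1126 to 1133 CPM. Over the 100 groups examined, chance marks about 1 in 20; 3 that rested on control replicate 1 were left out, since 1 read there is 16.3 CPM.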

How the results depend on the processing

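Mrps33, which was singled out for its fall with miR-27a, stayed lower than with control, with an adjusted p under 0.05, under every alternative run (-2.34 to -1.79). The members' medians moved by less than 0.38, the SD between libraries, under all of them, but that limit is wider than the medians themselves. Leaving out 1 library, they ranged from -0.002 to 0.208, -0.013 to 0.101 and 0.006 to 0.188 against control (miR-23a, miR-24, miR-27a). Against the other mimics the ranges were -0.009 to 0.124, -0.061 to 0.0008 and -0.072 to 0.052. The replicate block added Mrps12 and Mrpl17 for miR-24 against control (2 members called), Mrpl17 and Mrpl52 for miR-24 against the other mimics (3 called) and Mrps36 for miR-27a against them (2 called). limma with library weights called 1 (Mrps12), 4 (Mrpl17, Mrpl4, Mrpl52 and Mrps16) and 3 (Mrpl4, Mrps33 and Mrps36) members in these comparisons. The block raised the genes called to 55, 591 and 398 against control (miR-23a, miR-24, miR-27a) and to 443, 760 and 420 against the other mimics. DESeq2 called 45, 222, 154, 206, 338 and 153 in the same order, and limma 299, 990 and 796 against the other mimics. Without a filter, 55 genes were called for miR-23a and 39 for miR-27a against the other mimics. With total reads in place of TMM, 11 were called for miR-23a against control. Fitted on the compared groups only, 2 were called for miR-23a and 34 for miR-24 against control. The cause of these shifts was not tested.

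Leaving out 1 library, all-gene calls ranged from 8 to 19, 35 to 158 and 5 to 79 against control, and 17 to 109, 33 to 166 and 1 to 53 against the other mimics. Members called ranged from 0 to 1 in 4 comparisons, and stayed at 1 for miR-27a against control and 0 for miR-23a against the other mimics. Mrps33 ranged from -1.06 to -0.62 for miR-24 against control and from -1.41 to -1.24 for miR-27a against the other mimics. Mrps12 was called for miR-23a and for miR-24 against control without control replicate 4. Mrpl39 with miR-27a against control ranged from -0.997 to 0.081, the latter without control replicate 4.

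Requiring 10 reads in all 16 libraries left no member; 15 libraries, chosen after seeing the data, left 65, with the same calls. Above a mean log2-CPM of 5, all 4 same-numbered pairs correlated over 0.1 for miR-23a with miR-24 or miR-27a and for control with miR-27a. In the 3 other combinations of groups they did not. The best match was the same number for 4 of 4 libraries in control with miR-27a, and for 3 of 4 in miR-23a with miR-24 or miR-27a. Over all genes tested, control with miR-27a had 3 pairs over 0.1, so the pairing is partial. Low depth in control replicate 1 limits the control level of every member.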
